A study of Mus musculus with 13 samples.

Results

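Pdcd1, Lag3, Havcr2, Tigit, Btla, Cd160 and Cd244 encode inhibitory checkpoint receptors, surface proteins that restrain T cell activation once they bind their ligands. Their transcripts were followed in T cells sorted from subcutaneous melanomas of the mouse line B16-F10, grown in Foxp3-EGFP-DTR mice. These 7 genes were chosen by symbol from the 12963 genes of the expression table, and all 7 were among the 12667 genes that passed a filter on low values. All animals carried the Foxp3-EGFP-DTR allele. Under it, cells that express Foxp3 make EGFP and a human receptor for diphtheria toxin (DTx), and injected DTx kills these regulatory T (Treg) cells. Mice given PBS provided 3 libraries of Treg cells (Treg PBS), 2 of CD4 conventional T (Tconv) cells (CD4 PBS) and 2 of CD8 T cells (CD8 PBS). Mice given DTx provided 3 libraries of CD4 Tconv cells (CD4 DTx) and 3 of CD8 T cells (CD8 DTx). The study used adult mice of both sexes and describes its replicates as biological. The groups used here contain no animal without the DTR allele, so an effect of DTx itself and the loss of Treg cells cannot be told apart.

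Many checkpoint receptors, though not all, appear on T cells after antigen stimulation. They are best known from tumors and chronic infection, where several of them are displayed together. Pdcd1 encodes PD-1, the receptor for PD-L1 and PD-L2. Lag3 encodes a CD4-related protein that binds MHC class II, Havcr2 encodes TIM-3, and Tigit encodes a receptor that competes with the activating receptor CD226 for CD155. Btla and Cd160 encode receptors that share the ligand HVEM, and Cd244 encodes 2B4, a SLAM family receptor for CD48. Cd160 and Cd244 are also well known on natural killer (NK) cells, and tumor Treg cells are known to carry PD-1, TIM-3 and TIGIT.

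Values are normalized reads, the authors' read counts divided by 1 size factor per library, and the libraries held between 15947556 and 34140486 recovered reads. Foxp3 was at 1178 or more in the Treg PBS libraries and at 12.1 or less in the other 10. Cd4 was at 10595 or more in all Treg and CD4 libraries, against 413 or less in the CD8 libraries. Y-linked Ddx3y was at 2598 or more in replicate 3 of every group and 0 in the other 8 libraries, so replicate 3 was male and replicates 1 and 2 were female. NK cell transcripts differed among the CD8 libraries. The summed level of 6 NK cell genes was 3848 and 337 in CD8 PBS replicates 2 and 3 and 763, 6198 and 2342 in CD8 DTx replicates 1, 2 and 3, against 788 or less elsewhere. Counts of called receptors are therefore also given, where they changed, without the male libraries and without the 3 CD8 libraries in which Ncr1, an NK cell receptor, exceeded 500. Each PBS-treated Tconv group without its male library, and each CD8 group without those 3, is 1 library. The fits without either set of libraries called fewer of all genes than the main fit in every comparison.

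Pdcd1, Lag3, Havcr2 and Tigit had higher means in Treg PBS and in both Tconv populations after DTx than in CD4 PBS and CD8 PBS, although CD4 DTx and CD8 PBS overlapped for Lag3. Pdcd1 levels in normalized reads were 30243, 16352 and 21598 for Treg PBS and 2448 and 845 for CD4 PBS. After DTx it reached 14652, 9488 and 10031 in CD4 Tconv cells. In CD8 T cells Pdcd1 was at 3555 and 1389 after PBS and at 30565, 17086 and 17330 after DTx. Every PBS-treated Tconv library was below every Treg and DTx library. Treg PBS and CD8 DTx overlapped, while all CD4 DTx libraries were below all libraries of both.

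Havcr2 had the widest span of these genes on the log2 scale between Treg PBS and CD4 PBS. Levels were 4019, 3541 and 5262 for Treg PBS, 68.3 and 46.9 for CD4 PBS and 2328, 1880.3 and 2793 for CD4 DTx. In CD8 T cells they were 767 and 187 after PBS and 8046, 5197 and 7599.5 after DTx. Both CD8 PBS libraries were above both CD4 PBS libraries, and each DTx group was clear of its PBS group.

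Tigit was highest in Treg cells, where its levels were 15877, 12497 and 11604. CD4 PBS had 303 and 192, and CD4 DTx had 5245, 3569 and 2204. In CD8 T cells it was at 554 and 183 after PBS and at 5614, 5996 and 1559 after DTx. All Treg libraries were above all DTx libraries, and CD4 DTx overlapped CD8 DTx.

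Lag3 was the weakest of these transcripts. Levels were 321, 170.1 and 211 in Treg PBS, while CD4 PBS had 1.37 and 7.93, which were 1 and 12 recovered reads. In CD4 DTx it was at 26.2, 151 and 183, with replicate 1 well below replicates 2 and 3. CD8 T cells had 114 and 22.7 after PBS and 603, 396 and 650.1 after DTx, and all CD8 DTx libraries were above all Treg libraries.

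**Figure D1:**
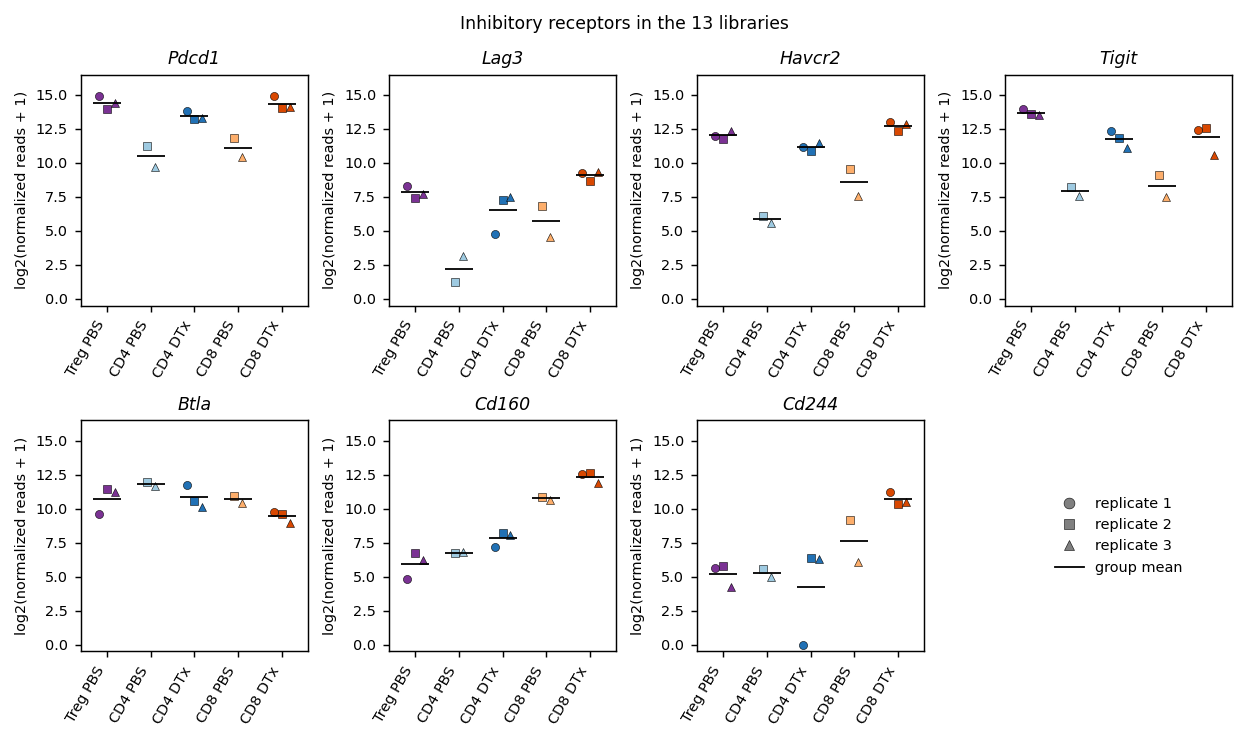
Levels of the 7 receptors in the 13 libraries, as log2(normalized reads + 1) on the vertical axis, by group on the horizontal axis. Symbols mark the replicate number and lines the group mean. By group mean Pdcd1, Lag3, Havcr2 and Tigit are lowest in CD4 PBS and CD8 PBS, Btla is lowest in CD8 DTx, and Cd160 and Cd244 are highest in CD8 DTx.

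Treg cells and CD4 Tconv cells were compared first, in tumors with Treg cells in place. Pdcd1, Lag3, Havcr2 and Tigit passed the test, called at an adjusted p under 0.05 with more than a 4-fold difference, and all 4 were higher in Treg cells. Of all genes tested, 10.2% were called in this comparison, 7.85% higher and 2.35% lower. In each of these 4 receptors every Treg library was above both CD4 PBS libraries, where 29.2% of all genes were. The log2 fold change on the log2(value + 1) scale was 3.94 ± 0.49 for Pdcd1 (SE, limma with Benjamini-Hochberg adjusted p = 0.000194). It was 5.62 ± 0.92 for Lag3 (limma adjusted p = 0.00112), 6.19 ± 0.46 for Havcr2 (limma adjusted p = 1.16e-05) and 5.77 ± 0.59 for Tigit (limma adjusted p = 5.77e-05). Btla was lower in every Treg library, where 27.4% of all genes were, but missed the threshold with a log2 fold change of -1.07 (95% interval -2.24 to 0.11). Cd160 and Cd244 differed by -0.84 and -0.04 on that scale and were not called. All 27 alternatives, among them the fit without the male libraries, called the same number, 4 receptors.

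Treg cell ablation was next examined in CD4 Tconv cells. Pdcd1, Lag3, Havcr2 and Tigit rose, and no receptor was called lower, where 6.85% of all genes were called, 5.06% higher and 1.79% lower. Havcr2 had the greatest rise, at 5.32 on the log2 scale (SE 0.46, limma adjusted p = 6.98e-05). The log2 fold changes were 4.31 ± 0.92 for Lag3 (limma adjusted p = 0.0085), 3.84 ± 0.59 for Tigit (limma adjusted p = 0.00117) and 2.96 ± 0.49 for Pdcd1 (limma adjusted p = 0.00183). Cd160 was above both CD4 PBS libraries in each CD4 DTx library, but its log2 fold change of 1.05 missed the threshold (95% interval -0.04 to 2.14). In all, 5 receptors had every CD4 DTx library above both CD4 PBS libraries, where 23.4% of all genes did. Without the male libraries 2 receptors were called, Havcr2 and Tigit, with Pdcd1 at 2.27 and Lag3 at 4.77. Without CD4 PBS replicate 2, Lag3 was at 3.36 and no longer called (adjusted p = 0.107, with a range of 2.6e-05 to 0.124 over the 27 alternatives).

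In CD8 T cells the same receptors, Pdcd1, Lag3, Havcr2 and Tigit, were called higher after DTx and none was called lower. Of all genes, 5.46% were called, 3.87% higher and 1.59% lower. Havcr2 again had the greatest difference among them, at 4.17 ± 0.46 on the log2 scale (SE, limma adjusted p = 0.000496). Tigit rose by 3.55 ± 0.59 (limma adjusted p = 0.00329), Lag3 by 3.37 ± 0.92 (limma adjusted p = 0.0355) and Pdcd1 by 3.23 ± 0.49 (limma adjusted p = 0.0019). Cd160 and Cd244 were above both CD8 PBS libraries in all CD8 DTx libraries without passing the test, so that 6 receptors were higher in every DTx library, where 22.8% of all genes were. The Lag3 call held in 15 of 27 alternatives, with an adjusted p between 0.00423 and 0.386. Without CD8 PBS replicate 3 its log2 fold change was 2.22, that of Tigit was 2.75, and 2 receptors were called, Pdcd1 and Havcr2. The count was 2 without the male libraries, where Havcr2 and Tigit were called, and 3 without the CD8 libraries rich in NK cell transcripts. It was 0 with only the CD8 libraries in the fit, where 201 of all genes were called, against 692 in the main fit. Pdcd1 had a limma adjusted p of 0.0552 there and Havcr2 of 0.0546.

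**Figure D2:**
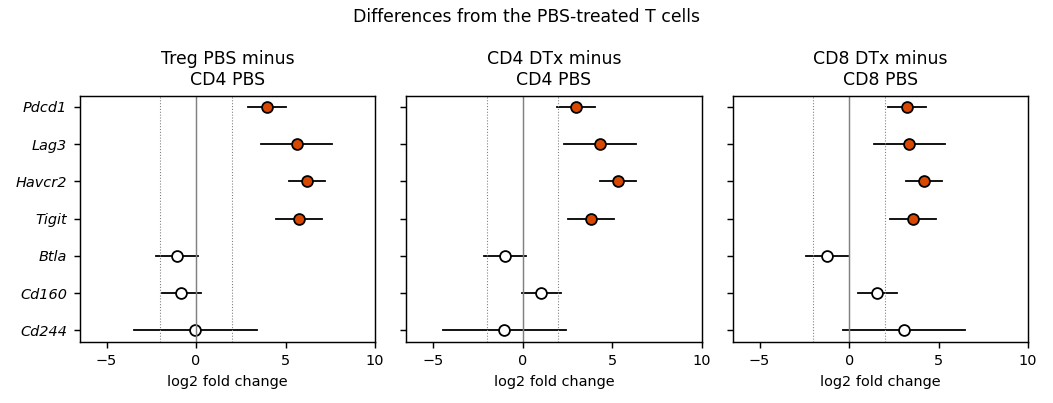
Log2 fold change of each receptor (horizontal axis, limma on log2(value + 1)) with its 95% interval, for Treg PBS against CD4 PBS and for DTx against PBS in CD4 and in CD8 T cells. Filled points were called and dotted lines mark the 4-fold threshold. Pdcd1, Lag3, Havcr2 and Tigit are filled and to the right in all 3 panels, and the Btla points lie left of 0.

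The response to DTx was not shown to differ between CD4 and CD8 T cells for any receptor. In the test of that difference 6 of 12667 genes were called (0.0474%), none of them a checkpoint receptor, and every receptor had a limma adjusted p of 1. No receptor had an unadjusted p under 0.05 there, and edgeR and DESeq2 on the recovered reads also called none. The interval was narrowest for Havcr2, at 1.15 (95% interval -0.28 to 2.58), and widest for Cd244, at -4.09 (95% interval -8.93 to 0.76, and -1.97 without CD4 DTx replicate 1, where Cd244 was at 0), so that differences of several fold remain possible.

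Promoter sequences are given because Pdcd1, Havcr2 and Tigit were called higher together and Btla was not called. The sequences are from RefSeq on GRCm38.p6, 250 bases before the annotated start, written 5′ to 3′ on the strand of the gene. RefSeq entries were matched by symbol for 6 of the 7 receptors, Cd244 under its current symbol Cd244a, and Lag3 had none. Capitals mark matches on either strand to the AP-1 letters TGANTCA, the NFAT letters GGAAA, the Runx letters TGTGGTT or the NR4A letters AAAGGTCA. These factors act downstream of T cell receptor signalling or in T cell differentiation.
Pdcd1, chr1:94052554-94052803, minus strand: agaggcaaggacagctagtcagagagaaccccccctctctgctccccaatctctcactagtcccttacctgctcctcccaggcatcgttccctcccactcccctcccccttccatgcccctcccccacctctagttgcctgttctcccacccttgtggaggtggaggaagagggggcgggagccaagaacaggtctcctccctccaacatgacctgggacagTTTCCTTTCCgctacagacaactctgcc
Havcr2, chr11:46454681-46454930, plus strand: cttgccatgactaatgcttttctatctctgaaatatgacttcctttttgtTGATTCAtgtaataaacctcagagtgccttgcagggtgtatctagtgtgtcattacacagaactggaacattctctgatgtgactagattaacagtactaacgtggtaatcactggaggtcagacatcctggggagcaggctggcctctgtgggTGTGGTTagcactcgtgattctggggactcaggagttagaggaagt
Tigit, chr16:43664185-43664434, minus strand: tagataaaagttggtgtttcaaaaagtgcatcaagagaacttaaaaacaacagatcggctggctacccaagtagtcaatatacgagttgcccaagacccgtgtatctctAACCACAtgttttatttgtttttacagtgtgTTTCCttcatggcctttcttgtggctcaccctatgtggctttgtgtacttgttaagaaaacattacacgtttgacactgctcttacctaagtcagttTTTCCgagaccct
Btla, chr16:45224087-45224336, plus strand: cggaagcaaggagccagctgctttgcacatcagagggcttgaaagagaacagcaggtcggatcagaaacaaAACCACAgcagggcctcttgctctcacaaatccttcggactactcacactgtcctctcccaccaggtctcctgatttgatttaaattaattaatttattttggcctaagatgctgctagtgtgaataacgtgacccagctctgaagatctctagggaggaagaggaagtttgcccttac
The Pdcd1 window had 2 NFAT matches, which lie side by side and each read TTTCC on this strand. Havcr2 had 1 AP-1 and 1 Runx match, Tigit had 2 NFAT and 1 Runx match, and Btla had 1 Runx match. Over all 7 windows of the receptors, Cd160 having 2 annotated starts, the Runx letters were in 5, the NFAT letters in 4, the AP-1 letters in 2 and the NR4A letters in 0. Among 32851 windows of the same length they were in 4.40%, 55.6%, 6.75% and 1.34%. The receptors that moved together did not share a match that Btla lacked. A match is a description of letters and not a binding site.

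Btla had negative log2 fold changes in Treg PBS over CD4 PBS and after DTx in both Tconv populations, and in CD8 T cells after DTx it was alone among the receptors in this. It had 781, 2728 and 2376 normalized reads for Treg PBS and 3939.8 and 3287 for CD4 PBS. In CD4 DTx it was at 3418, 1539.8 and 1134. CD8 T cells had 1983 and 1356 after PBS and 876, 783 and 481 after DTx. Every CD8 DTx library was below both CD8 PBS libraries, where 20.8% of all genes were, and every Treg library was below both CD4 PBS libraries, while CD4 DTx overlapped CD4 PBS. None of these differences was called. The log2 fold change in CD8 T cells after DTx was -1.25 (95% interval -2.42 to -0.07, limma adjusted p = 0.167), and in CD4 T cells it was -0.99 (95% interval -2.16 to 0.19).

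Cd160 and Cd244 had their highest levels in the CD8 libraries. Cd160 levels were 1886 and 1610.2 normalized reads for CD8 PBS and 5851, 6378 and 3765 for CD8 DTx. In the other groups it was at 27.9, 105 and 73.0 (Treg PBS), at 104 and 113 (CD4 PBS) and at 145, 295 and 266 (CD4 DTx). Every CD8 library was above all others, and every CD8 DTx library was above both CD8 PBS libraries. Cd244 was at 569 and 66.6 in CD8 PBS and at 2386, 1279 and 1433 in CD8 DTx. It was between 17.7 and 53.1 in Treg PBS and CD4 PBS. In CD4 DTx it was at 0, 82.8 and 77.7, where the 0 allows up to 2.81, which is 3 reads of that library. Every CD8 DTx library was above all others, whereas CD8 PBS replicate 3 was below CD4 DTx replicates 2 and 3.

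In the PBS-treated tumors Cd160 and Havcr2 were called higher in CD8 than in CD4 T cells, where 0.908% of all genes were called and 0.742% were called higher. The log2 fold change was 4.0 ± 0.55 for Cd160 (SE, limma adjusted p = 0.00386) and 2.72 ± 0.51 for Havcr2 (limma adjusted p = 0.0224). Lag3 was higher in both CD8 libraries but missed the threshold at 3.51 (95% interval 1.32 to 5.69). In all, 4 receptors were above both CD4 PBS libraries in both CD8 PBS libraries, where 21.7% of all genes were. Pdcd1 and Tigit differed by 0.63 and 0.40, and their ranges overlapped. Btla was lower in CD8 T cells, at -1.13 (95% interval -2.42 to 0.16), and was not called. Without CD8 PBS replicate 2, the library rich in NK cell transcripts, Havcr2 was at 1.70 and Cd160 at 3.88, and 1 receptor was called. Without the male libraries, or without all CD8 libraries with NK cell transcripts, neither call held, at a Cd160 log2 fold change of 4.17 or 3.88. These 2 fits left groups of 1 library and called fewer of all genes than the main fit.

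After DTx, Cd160 and Cd244 were called higher in CD8 than in CD4 T cells, where 0.576% of all genes were called higher. The log2 fold change was 4.52 ± 0.45 for Cd160 (SE, limma adjusted p = 0.000533) and 6.45 ± 1.41 for Cd244 (limma adjusted p = 0.0416). Havcr2, Lag3 and Pdcd1 were above all CD4 DTx libraries in all CD8 DTx libraries without passing the test, at 1.57, 2.56 and 0.90. In all, 5 receptors were so separated, where 7.88% of all genes were. Tigit differed by 0.12 (95% interval -1.04 to 1.27). Btla was lower in CD8 T cells, at -1.39 (95% interval -2.44 to -0.34), and was not called. The Cd244 call was lost in 16 of 27 alternatives, with adjusted p between 8.63e-05 and 0.37 and a log2 fold change between 4.33 and 7.58. The value of 4.33 came from leaving out CD4 DTx replicate 1, the library at 0. Without the male libraries or the CD8 libraries with NK cell transcripts neither call held, while Cd160 was at 4.88 and 4.69. Both fits left groups of 1 library and called fewer of all genes than the main fit.

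Levels of CD8 lineage transcripts in the CD4 DTx libraries were set beside these differences. Cd8a was at 0.256%, 1.77% and 3.24% of the CD8 DTx mean in CD4 DTx replicates 1, 2 and 3, and Cd8b1 was at 0.437%, 2.68% and 3.86%. Cd160 was at 2.72%, 5.54% and 4.99% of that mean, and Cd244 at 0%, 4.87% and 4.57%. Replicate 1 was lowest for these 4 transcripts. It was highest for Klrc1 and Klrd1, which encode the NKG2A and CD94 receptor chains, at 29.6% and 29.1% against 4.38% to 13.9% in replicates 2 and 3. In CD4 PBS, Cd160 was at 5.94% and 6.46% of the CD8 PBS mean and Cd244 at 14.6% and 9.36%. Cd8a was at 0.122% and 0.103% there, and Cd8b1 at 1.19% and 1.33%. Lag3 followed the same order of replicate 1 against the others, at 4.76%, 27.5% and 33.3%. Pdcd1 was at 67.6%, 43.8% and 46.3%, Havcr2 at 33.5%, 27.1% and 40.2%, and Tigit at 119%, 81.3% and 50.2%. The part of CD8 T cell RNA in the CD4 DTx levels of Cd160, Cd244 and Lag3 was not tested.

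**Figure D3:**
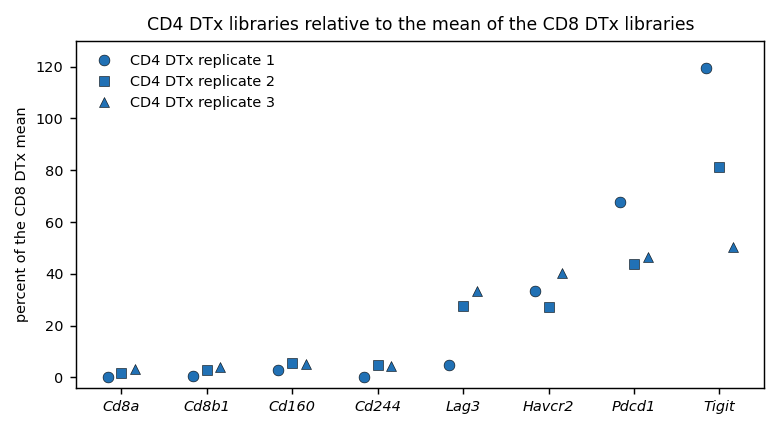
Level of each transcript in the 3 CD4 DTx libraries (points, by replicate) as a percent of the mean of the CD8 DTx libraries (vertical axis). Cd8a, Cd8b1, Cd160 and Cd244 lie at 5.54% or less, and Pdcd1, Havcr2 and Tigit at 27.1% or more.

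NK cell transcripts in the CD8 libraries were set beside Cd244. In CD8 DTx, Cd244 was highest in replicate 1, where Ncr1 was at 17.6 and the NK cell sum at 763. It was at 1279 in CD8 DTx replicate 2, where Ncr1 was at 2147. In CD8 PBS both were higher in replicate 2, with Ncr1 at 956 and 25.3. The part of NK cell RNA in the levels of Cd160 and Cd244 was not tested. In sorted bulk populations a higher share of expressing cells and more RNA per cell cannot be told apart.

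The DTx groups were then set beside Treg cells, which served as the reference with high receptor transcripts. No receptor was called between CD4 DTx and Treg PBS, where 4.01% of all genes were called, 1.56% higher and 2.45% lower. At an adjusted p under 0.05 alone, which 7.91% of genes passed, Tigit was lower in CD4 DTx at -1.93 (95% interval -3.08 to -0.78, limma adjusted p = 0.0443) and Cd160 higher at 1.89 (95% interval 0.91 to 2.87, limma adjusted p = 0.0234). Both were called past 4-fold when CD4 DTx replicate 1 was left out, at -2.23 and 2.21. Cd160 was also called without Treg PBS replicate 2, at 2.29, or replicate 3, at 2.03. The mean of CD4 DTx was 50.1% of the Treg PBS mean for Pdcd1, 54.6% for Havcr2, 51.4% for Lag3 and 27.6% for Tigit. Pdcd1, Havcr2 and Tigit were below every Treg library in every CD4 DTx library, where 15.2% of all genes were so separated. Cd160 was above every Treg library, where 10.2% were.

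Between CD8 DTx and Treg PBS, Cd160 and Cd244 were called, both higher in CD8 DTx, where 4.93% of all genes were called, 2.14% higher and 2.79% lower. The log2 fold change was 6.41 ± 0.45 for Cd160 (SE, limma adjusted p = 7.33e-06) and 5.46 ± 1.41 for Cd244 (limma adjusted p = 0.0314). Pdcd1 had a mean of 95.3% of Treg PBS, a log2 fold change of -0.08 and a 95% interval from -1.03 to 0.87. Lag3 was above every Treg library at 235% of the mean, Havcr2 was at 163%, and neither was called. In all, 3 receptors were above every Treg library, where 8.71% of all genes were, and 1 was below, where 13.9% were. Tigit was below every Treg library at 32.9% of the mean and a log2 fold change of -1.82 (limma adjusted p = 0.0548). The Cd244 call held in 17 of 27 alternatives (adjusted p between 3.47e-06 and 0.401). It was lost when any 1 of the Treg PBS or CD8 DTx libraries was left out, with a log2 fold change between 4.96 and 5.73, and without the male libraries or the CD8 libraries with NK cell transcripts, where 1 receptor was called.

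The PBS-treated CD8 T cells were also below Treg cells for Pdcd1, Havcr2 and Tigit and above them for Cd160, where 9.41% of all genes were called, 6.56% higher in Treg cells and 2.85% lower. The log2 fold changes of Treg PBS over CD8 PBS were 3.31 for Pdcd1, 3.47 for Havcr2, 5.37 for Tigit and -4.84 for Cd160, with limma adjusted p of 0.000733, 0.000384, 0.000108 and 7.43e-05. Lag3 was at 2.12 and was not called. Without the male libraries 2 of these were called, Havcr2 and Tigit.

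**Figure D4:**
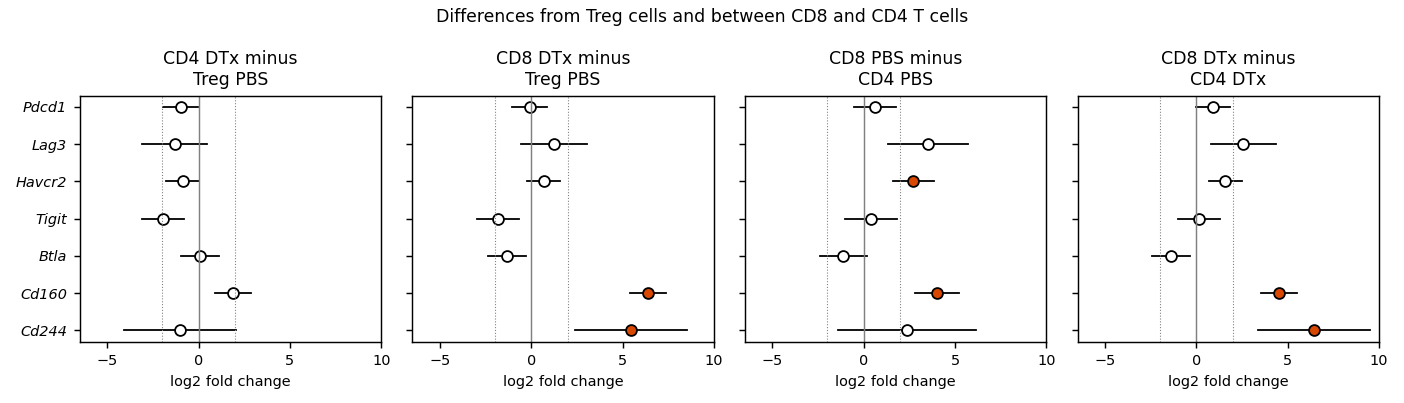
Log2 fold change of each receptor with its 95% interval for CD4 DTx and CD8 DTx against Treg PBS and for CD8 against CD4 T cells after PBS and after DTx. Filled points were called and dotted lines mark the 4-fold threshold. No point is filled in the CD4 DTx panel, Cd160 is filled in the other 3, and Cd244 in both CD8 DTx panels.

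Ordered by mean level, the groups ranked differently from receptor to receptor. For Pdcd1 and Tigit the order was Treg PBS, CD8 DTx, CD4 DTx, CD8 PBS and CD4 PBS. For Lag3 and Havcr2 it was CD8 DTx, Treg PBS, CD4 DTx, CD8 PBS and CD4 PBS. Neighbours whose libraries overlapped were Treg PBS and CD8 DTx for Pdcd1 and Havcr2, CD8 DTx and CD4 DTx for Tigit, Treg PBS and CD4 DTx and also CD4 DTx and CD8 PBS for Lag3, and CD8 PBS and CD4 PBS for Pdcd1 and Tigit. For Btla the order was CD4 PBS, CD4 DTx, Treg PBS, CD8 PBS and CD8 DTx, and of its neighbours only CD8 PBS and CD8 DTx did not overlap. For Cd160 it was CD8 DTx, CD8 PBS, CD4 DTx, CD4 PBS and Treg PBS, with overlap between the last pair. For Cd244 it was CD8 DTx, CD8 PBS, CD4 DTx, Treg PBS and CD4 PBS, and CD8 DTx alone was clear of its neighbour.

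Levels of different receptors can be compared per kilobase of exon, with exon lengths from GENCODE vM21 on GRCm38, which may differ from the gene models the authors used. In Treg PBS the mean was 14500.5 normalized reads per kb for Tigit and 11778 for Pdcd1, followed by 1571 for Havcr2, 578 for Btla, 111 for Lag3, 26.0 for Cd160 and 8.25 for Cd244. In CD4 PBS Btla was first by mean, at 1064, ahead of Pdcd1 at 853. This order held in replicate 3 but not in replicate 2, where Pdcd1 was ahead per kb. Before division by exon length, Pdcd1 was at 2448 and 845 in replicates 2 and 3 and Btla at 3939.8 and 3287. In CD8 DTx the means were 11223 for Pdcd1, 4776.5 for Tigit, 2553 for Havcr2, 2018 for Cd160, 349 for Cd244, 261 for Lag3 and 210.0 for Btla. Per kilobase, Pdcd1 was thus the leading receptor transcript in CD8 DTx and Tigit in Treg PBS. Before division by exon length Pdcd1 was above Tigit in every Treg library, with means of 22731 and 13326. In GENCODE, Cd160 shared 68 of 2642 exon bases with Pdzk1 on the opposite strand, and Pdzk1 was at 64.4 normalized reads or less in every library. Cd244 overlaps Ly9, a SLAM family gene on the opposite strand, with 0 exon bases shared.

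Ligands of these receptors were measured in the same T cells. The table held 11 ligands, of which 10 passed the filter. Treg PBS against CD4 PBS had 1 called higher and 0 lower, with a list median log2 fold change of 0.85 beside 0.01 for all genes. DTx had 2 called higher in CD4 T cells (median 0.14 beside -0.04) and 2 in CD8 T cells (median 0.67 beside -0.03). Pdcd1lg2, which encodes PD-L2, had 890, 603 and 533 normalized reads for Treg PBS, 39.6 and 15.2 for CD4 PBS and 619, 383 and 525 for CD4 DTx. It was at 93.5 and 44.0 in CD8 PBS and 534, 247 and 396 in CD8 DTx. PD-L2 transcripts were called higher in these 3 comparisons, as those of PD-1 were, with log2 fold changes of 4.69 in Treg PBS over CD4 PBS (SE 0.52, limma adjusted p = 0.000101), 4.29 in CD4 DTx (limma adjusted p = 0.000285) and 2.52 in CD8 DTx (limma adjusted p = 0.00961).

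Lgals3, encoding galectin-3, a reported ligand of LAG-3, rose after DTx by 3.85 in CD4 T cells (SE 0.42, limma adjusted p = 0.000182) and by 5.02 in CD8 T cells (limma adjusted p = 0.000121). Its means were 12360.1 ± 1357 and 21043 ± 7994 normalized reads (SD, n = 3) after DTx, against 864 and 688 after PBS and 2069 in Treg PBS. Lgals3 was also called higher in both DTx groups than in Treg cells, at 2.62 and 3.31. Cd48, which encodes the ligand of 2B4, was between 5432 and 8432 in the PBS-treated Tconv libraries and between 14741 and 40225 in the DTx libraries. Its log2 fold changes of 1.87 and 1.83 had limma adjusted p of 0.0062 and 0.0095 but fell short of 4-fold. At an adjusted p under 0.05 alone, 12.7% of all genes passed in CD4 T cells after DTx, 10.9% in CD8 T cells and 20.4% between Treg and CD4 PBS. Cd274, encoding PD-L1, was at 1.42 in CD4 T cells (limma adjusted p = 0.0168), also short of 4-fold. Lgals9, encoding galectin-9, a ligand of TIM-3, was between 5466 and 11881 in all 13 libraries. The low HVEM transcript Tnfrsf14 was at 101 or less in every library.

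Partner genes, which compete for or share these ligands, had 1 of 7 called higher in CD4 DTx over CD4 PBS and 2 of 7 in CD8 DTx over CD8 PBS, with 0 lower in either (medians 0.85 and 1.07). In Treg PBS over CD4 PBS 1 was called higher, Cd80, a B7 protein that also binds PD-L1, at 4.47. Tnfsf14, which encodes LIGHT, another partner of HVEM, rose by 2.38 in CD4 T cells and 2.36 in CD8 T cells, and Cd80 by 3.94 in CD8 T cells. Cd226, the activating counterpart of Tigit, was at 1715 and 1963 in CD4 PBS and 7427, 4191 and 4078 in CD4 DTx. Its log2 fold changes after DTx of 1.45 in CD4 T cells and 1.07 in CD8 T cells passed the adjusted p (0.00695 and 0.0398 in limma) and fell short of 4-fold. Cd226 in Treg PBS was at 1832, 1338 and 1536, so Treg cells had the highest Tigit and the lowest mean Cd226 of the 5 groups, although their Cd226 range overlapped that of CD4 PBS.

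**Figure D5:**
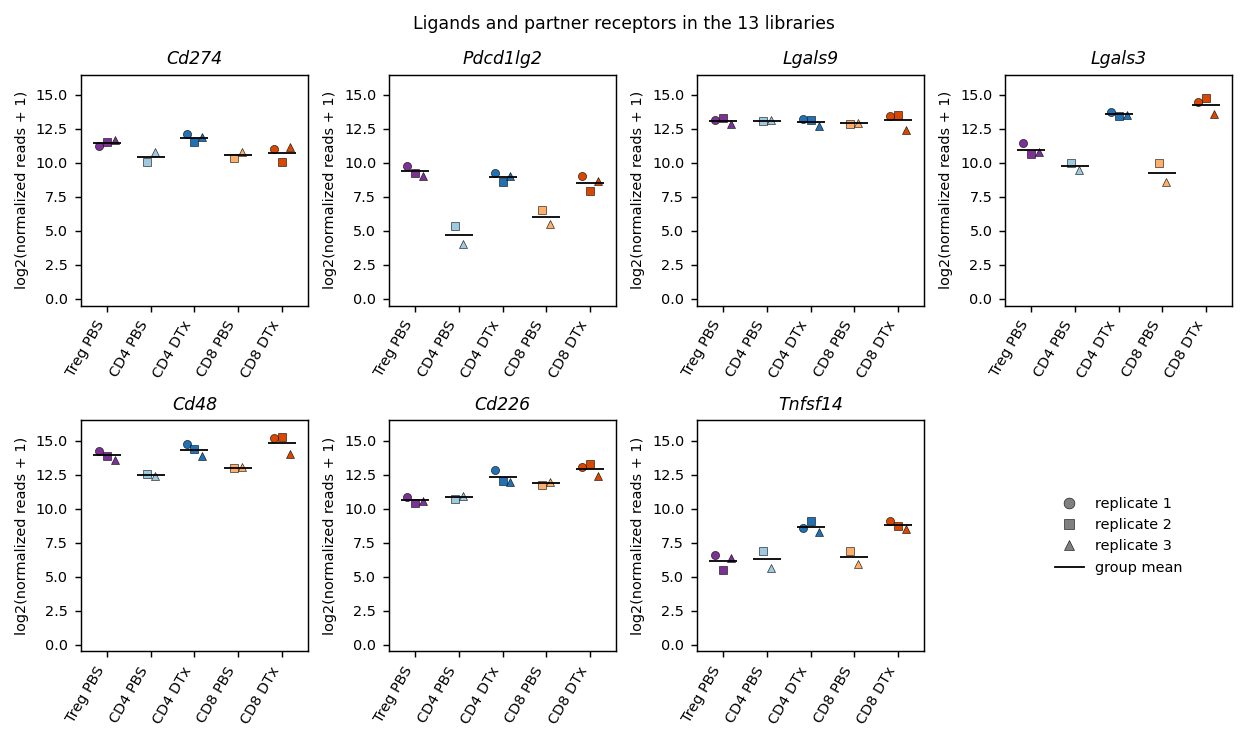
Levels of 4 ligands of PD-1, TIM-3 and LAG-3, of the 2B4 ligand Cd48 and of the partner genes Cd226 and Tnfsf14 in the 13 libraries, as log2(normalized reads + 1). Symbols mark replicates and lines group means. Pdcd1lg2 is lowest in CD4 PBS and CD8 PBS, Lgals3 and Cd48 are highest in the DTx groups, and Lgals9 varies little between groups.

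Signalling genes, such as the phosphatase genes Ptpn6 and Ptpn11 and the 2B4 adaptor gene Sh2d1a, were not called in any of these comparisons. There were 10 tested. Sh2d1a was at 0.998 in CD8 T cells after DTx (limma adjusted p = 0.0261).

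Other inhibitory receptors had 3 of 11 called higher and 1 lower in CD4 DTx over CD4 PBS (median 1.60), and 3 higher and 0 lower in CD8 DTx over CD8 PBS (median 0.86). Treg PBS over CD4 PBS had 2 higher and 2 lower (median 0.36). Klrg1, encoding a cadherin receptor, rose by 3.35 and 4.6 after DTx in CD4 and CD8 T cells. Klrc1, encoding NKG2A, rose by 3.52 and 3.79, and Ctla4 rose by 2.88 and 2.09. Ctla4 and Klrg1 were highest in Treg PBS, at means of 38359.8 ± 3682 and 9647 ± 2598 normalized reads (SD, n = 3). Ctla4 was lower than in Treg cells by a log2 fold change of -2.65 in CD4 DTx and -3.39 in CD8 DTx (limma adjusted p = 0.000842 and 9.68e-05). Klrd1, whose product pairs with NKG2A, was called lower in Treg cells than in CD4 PBS, at -4.45, as was Lair1 at -2.33.

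Transcription factors linked to activation or exhaustion had 3 of 18 called higher and 1 lower in CD4 T cells after DTx (median 1.15), and 4 higher and 1 lower in CD8 T cells (median 0.66). Treg PBS over CD4 PBS had 4 higher and 1 lower (median 0.99). Tcf7, encoding TCF-1 of naive and stem-like T cells, fell by 2.71 and 2.79 on the log2 scale after DTx in CD4 and CD8 T cells. Id2 rose by 2.84 and 2.7 and Tbx21 by 3.24 and 2.57. Maf rose by 3.56 in CD4 T cells, and Prdm1, encoding Blimp-1, by 3.14 in CD8 T cells. Tox, widely used as a mark of exhausted T cells, was at 0.74 in Treg PBS over CD4 PBS, which was not called, at -1.25 in CD4 T cells after DTx (limma adjusted p = 0.00672), short of 4-fold, and at 0.00 in CD8 T cells (95% interval -0.55 to 0.55). Tox2, a related factor, was called higher in CD8 T cells after DTx, where its levels were 82.2, 137 and 193 in order of size against 0 and 2.43 in CD8 PBS, which are within the floor of 3 reads. In CD4 T cells Tox2 was at 67.0 and 79.3 after PBS and between 26.2 and 682 after DTx, and was not called.

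Naive T cell genes fell and proliferation genes rose in the comparisons in which Pdcd1, Lag3, Havcr2 and Tigit were called higher. Those were Treg PBS over CD4 PBS and DTx over PBS in CD4 and in CD8 T cells. Btla, Cd160 and Cd244 were not called in any of them. Of 9 naive genes, 8 were called lower in Treg cells than in CD4 PBS (median -3.01), and 5 fell after DTx in CD4 T cells (median -2.28) and 5 in CD8 T cells (median -2.0), with 0 higher. Ccr7, encoding the lymph node homing receptor, fell by 4.49 and 4.37 on the log2 scale after DTx in CD4 and CD8 T cells. Of 8 proliferation genes, 7 were called higher and 0 lower in each of these comparisons, with medians of 4.35, 3.17 and 3.03. Mki67 was at a mean of 5018 ± 2691 in Treg PBS and at 2194 ± 480 in CD4 DTx and 3643 ± 1809 in CD8 DTx (SD, n = 3), against 236 and 535 after PBS. Which of the receptors' differences follow the share of naive or dividing cells was not tested.

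Likeness of pattern was measured by Pearson correlation of log2(value + 1) over the 13 libraries, among 9729 genes with a mean of at least 100. The points share groups and libraries, and the values are descriptions. The nearest genes were Ifngr1 (r = 0.976), Osbpl3 (0.972) and Litaf (0.971) for Pdcd1, and Galnt3 (0.979) and Osbpl3 (0.978) were among those for Havcr2. For Tigit they included Glrx (0.985) and Abhd4 (0.984), and for Lag3 they were Orc1 (0.947), Zbtb32 (0.944) and Ankrd29 (0.935). Btla was nearest to Ash1l (0.883), Tnfrsf25 (0.864) and Usp53 (0.856). Cd160 was nearest to Tm6sf1 (0.972), followed by Cd8a (0.954) and Cd8b1 (0.940), the CD8 co-receptor genes. Cd244 was nearest to Sirt3 (0.929), Xcl1 (0.927) and Cnot9 (0.910).

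Markers of other cells were also summed. B cell genes summed to between 236.5 and 1767, melanocyte genes to between 64.5 and 1229 and myeloid or dendritic cell genes to between 821 and 5567. Melanocyte sums were highest in Treg PBS (782 to 1229) and lowest in CD8 DTx (64.5 to 127). Erythroid sums were 1663 and 10981 in CD4 PBS, 2866 and 11503 in CD8 PBS and 2941 to 4995 in Treg PBS, against 0 to 1773 in the DTx libraries. T cell genes summed to between 118825 and 190902. Melanocyte sums were lower after DTx than after PBS within CD4 and within CD8 T cells. Erythroid sums were mostly lower too, but CD4 DTx replicate 2, at 1773, was above CD4 PBS replicate 2, at 1663. The sums of 10981 and 11503 were both in replicate 3, which was male. The part of erythroid cells and melanocytes in the receptor levels was not tested.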

How the data were processed

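RNA sequencing of 13 libraries of sorted tumor T cells was analysed. As the methods and labels describe, the authors prepared low-input SMART-type libraries, trimmed reads with Cutadapt, aligned them with hisat2 to NCBIM37 (mm9), assigned unique alignments to genes and normalized to library size. The strand setting and read counter are not given in the sources used here. The authors deposited a normalized signal per gene and library under the name FPM. Its library totals were not equal and ran from 21793496 to 27493693. Dividing each library by the value of 1 read gave whole reads for 100% of values, within 0.01 of a read. 1 read was worth 0.661 to 1.37 units, and 3 reads, the detection floor, 1.98 to 4.10. Floors cover counting error only. The test was planned for FPM and its pseudocount and minimum were kept.

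The 12667 genes that reached 10 normalized reads in 2 or more libraries were tested with limma 3.58.1 (R 4.3.3, eBayes with trend) on log2(value + 1), which understates changes of low genes, with 1 mean per group over all 13 libraries. With nothing beyond the study's description to tie libraries to animals, p-values measure the spread between these libraries. A call needed a Benjamini-Hochberg adjusted p under 0.05 over all genes and an absolute log2 fold change above 2. The fit was also run on simulated data with independent libraries and the same spread setting for every gene. That run cannot show how the test behaves with the pairing and spread of these libraries. The edgeR 4.0.16 and DESeq2 1.42.0 tests on recovered reads were alternatives, beside other pseudocounts, filters, scalings, a replicate block and leaving out each library. Those without the male or NK-marked libraries were added after seeing the data. The receptors, gene lists and motifs were chosen with earlier results of these data known. All receptors are named, from each list at most 4 called genes by size per comparison and others where a value is needed, and per receptor the 3 nearest genes, apart from a few that are not reported here. A few list genes that were not called were named after their values were seen.

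Groups share replicate numbers in the titles. The study describes replicates as isolated on independent days without tying numbers to days, and replicate 3 was male in every group. For CD4 DTx and CD8 DTx, same-numbered libraries deviated from their group means with correlations of 0.36, 0.207 and 0.59, so these were taken as paired by the data. The main limma fit left this pairing out, and its p-values treat these libraries as independent. This applies to CD8 DTx over CD4 DTx and to the difference of the DTx responses. A fit with the replicate number as a block was among the alternatives. Between other groups of 3 at least 1 pair was under 0.1. Where 2 numbers were shared, the correlation was 0.189 for CD4 PBS with CD8 PBS. Treg PBS had 0.124 with CD4 PBS and 0.118 with CD8 PBS. The PBS-treated Tconv groups had between -0.345 and 0.0365 with the DTx groups. These groups were not taken as paired, and the main fit treats their libraries as independent too, although they may be matched.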

Additional observations from a re-analysis of the deposited data

How the results depend on the processing

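Each of 63 receptor values (7 receptors in 9 comparisons) was recomputed under 27 alternatives, which gave 1582 of 1701 values with the same direction and side of the threshold. Of 22 called values 9 were called under every alternative and 0 changed direction. Those lost were lost in 60 instances, and 5 uncalled values passed the threshold in 10 instances. Leaving out a PBS library of CD4 or CD8 cells left 1 library there, which was assumed to vary like the other groups.

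The number of receptors called changed in these cases. For CD8 DTx over CD8 PBS it was 0 with only the groups compared in the fit, 2 without the male libraries and 3 with a pseudocount of 0.1, equal library totals, edgeR, no trend or the NK-marked libraries left out, and between 2 and 5 over the fits that left out 1 library. For CD4 DTx over CD4 PBS it was 2 without the male libraries and 3 with only the groups compared (3 to 4 leaving out 1 library). For Treg PBS over CD8 PBS it was 2 without the male libraries and 5 with DESeq2, which added Cd244 (4 to 5). For CD4 DTx over Treg PBS it was 2 with no fold change threshold (0 to 2). For CD8 DTx over Treg PBS it was 1 with a pseudocount of 0.1, without the trend, without the male libraries and without the NK-marked libraries (1 to 2). For CD8 PBS over CD4 PBS it was 3 with DESeq2, which added Lag3, 1 without the trend or with only the groups compared, and 0 without the male or NK-marked libraries (1 to 2). For CD8 DTx over CD4 DTx it was 1 with a pseudocount of 0.1, equal library totals, edgeR, no trend or only the groups compared and 0 without the male or NK-marked libraries (1 to 2). The cause was not tested, except that fits on fewer libraries have less to estimate the spread from. The number of all genes called moved too. With only the groups compared it was 201 in CD8 DTx over CD8 PBS, against 692 in the main fit. In CD4 DTx over CD4 PBS it was 601 against 868, while Treg PBS over CD8 PBS alone rose, to 1302 from 1192. The fits without the male or the NK-marked libraries called fewer of all genes in every comparison.

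With the replicate number as a block the number of receptors called was the same in all 9 comparisons, 4 in CD4 DTx over CD4 PBS and 2 in CD8 DTx over CD4 DTx. Scaling to equal library totals moved the median gene by -0.10 in Treg PBS over CD4 PBS, -0.14 in CD4 DTx, -0.20 in CD8 DTx and -0.11 in Treg PBS over CD8 PBS.

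Values that changed sign were all uncalled. For Cd244 they were, in Treg PBS over CD4 PBS, 0.089 with edgeR, 0.088 with DESeq2, 0.50 with the replicate block and 0.15 without the male libraries (-0.35 to 0.46 leaving out 1 library), in CD4 DTx over CD4 PBS 0.52 with edgeR and 0.49 with DESeq2 (-2.11 to 1.09), and in CD4 DTx over Treg PBS 0.43 and 0.40 (-2.07 to 1.13). The fits without CD4 DTx replicate 1, where Cd244 was 0, gave the upper values of the last 2 ranges. Btla in CD4 DTx over Treg PBS ranged from -0.49 to 0.42 leaving out 1 library, and in Treg PBS over CD8 PBS it was -0.050 with equal totals and -0.44 without the male libraries (-0.27 to 0.63). Pdcd1 in CD8 DTx over Treg PBS was 0.039 without the male and 0.47 without the NK-marked libraries (-0.36 to 0.15). In CD8 PBS over CD4 PBS without the NK-marked libraries Pdcd1 was -0.051 (-0.14 to 1.39) and Tigit -0.40 (-0.40 to 1.20). Tigit in CD8 DTx over CD4 DTx ranged from -0.22 to 0.75. In the difference of the DTx responses Lag3 was -0.24 with a pseudocount of 10 and -0.36 without the NK-marked libraries (-0.20 to 2.09), and without the NK-marked libraries Havcr2 was -0.10 (0.14 to 2.17), Tigit -1.10 (-0.51 to 1.08) and Btla -0.36 (-0.20 to 0.60). Pdcd1 ranged there from -1.04 to 0.49.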

Other observations

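The CD8 PBS libraries differed in the same direction for all receptors. All 7 receptors were higher in replicate 2 than in replicate 3, where 51.9% of all genes tested were higher in replicate 2. The ratio of replicate 2 to replicate 3 was 8.53 for Cd244, 5.04 for Lag3, 4.11 for Havcr2, 3.03 for Tigit, 2.56 for Pdcd1, 1.46 for Btla and 1.17 for Cd160. Replicate 2 was female and had an NK cell sum of 3848 against 337, and Mki67, a proliferation gene, was at 842 against 228. In CD4 PBS 5 of 7 receptors were higher in replicate 2, where 49.3% of all genes were, with ratios between 0.172 for Lag3 and 2.89 for Pdcd1. With 2 libraries per PBS group, sex and other differences between these libraries cannot be told apart.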
